A study of Caenorhabditis elegans with 11 samples.

Results

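Pseudogenes and noncoding RNAs made up 58 of the 882 genes in the authors' deposited table of genes whose RNA differed after loss of the splicing helicase SACY-1 in Caenorhabditis elegans. Members were chosen by the gene type that table gives (38 pseudogenes, 10 genes typed ncRNA, 8 lincRNAs and 2 snoRNAs) and by name. No measured value was used. Another 4 pseudogenes with F-box names (fbx) were left to that family, and the other 820 listed genes were protein-coding. The table lists a gene only if it had an adjusted p under 0.05 and a log2 fold change of at least 1 in either direction in at least 1 of 2 comparisons. Noncoding genes outside it were not analysed here.

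SACY-1 is the worm ortholog of human DDX41, a helicase found in the spliceosome. It was removed by adding auxin to worms that carried SACY-1 with a degron tag and the plant receptor TIR1, which sends tagged proteins to degradation. All animals were young adults kept on 2 mM auxin at 20 °C for 24 hours. RNA with a poly(A) tail was selected from whole-worm lysates and sequenced. Each sample was a mass culture and not a single animal.

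The 2 soma control samples were of strain CA1200, which carries ieSi57 (TIR1::mRuby under the eft-3 promoter, on chromosome II) and unc-119(ed3) on III. The 3 soma-depleted samples were of DG4703, which carries ieSi57 and sacy-1(tn1880), the allele that encodes aid::gfp::myc::sacy-1, on chromosome I. In the 3 germline control samples, of CA1352, TIR1::mRuby came from ieSi64 under the gld-1 promoter, again with unc-119(ed3). The 3 germline-depleted samples were of DG4700, with ieSi64 and sacy-1(tn1880). Both TIR1 transgenes also carry a Caenorhabditis briggsae unc-119(+) copy. The labels list unc-119(ed3) for the controls only and the tagged SACY-1 for the depleted strains only, so strain background and depletion cannot be told apart. Soma and germline name where SACY-1 was removed, not a tissue that was isolated. In such bulk samples, fewer cells of a type and less RNA per cell cannot be told apart either.

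A pseudogene is a copy of a gene that has lost an intact reading frame, and some are still transcribed. Transcripts with early stop codons are known targets of nonsense-mediated decay, which removes RNAs that cannot be read to their end. The name lincRNA stands for long RNAs made between genes and without a recognised reading frame. A snoRNA guides the chemical modification of ribosomal RNA and often lies in an intron of a host gene. In worm annotation, ncRNA is a class for transcripts that fit none of the better defined classes. Mature snoRNAs and many other small RNAs lack the poly(A) tail by which these libraries were selected.

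Levels are the authors' group means in FPKM, fragments normalised for transcript length and sequencing depth, and no value of a single sample was available. Where 4 levels are given they stand with the soma pair before the germline pair, and in each pair control before depleted. Log2 fold changes are those of the authors' deposited table, depleted over control within a comparison, and a gene is said to have risen or fallen only where its DESeq2 adjusted p in that table was under 0.05. The p-values set the difference between the 2 strains of a comparison against the spread between cultures of a strain. The spread itself could not be recomputed, so levels carry no error and differences between the 2 comparisons were not tested.

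After germline depletion most pseudogenes and ncRNAs rose, and most lincRNAs were not called. In that table, as the authors deposited it, 38 of the 58 members (65.5%) were higher after germline depletion, against 41.8% of all listed genes. A further 2 (3.45%) were lower, against 21.1% of listed genes. The 40 members called in either direction were 69% of members, beside 62.9% of all listed genes. In the soma comparison of that deposited table, the authors called 22 members higher (37.9%), and they did so for 29.7% of listed genes. Only 3 (5.17%) fell, beside 29.8% of listed genes. The 25 called in either direction were 43.1% of members, fewer than the 59.5% of listed genes. The median log2 fold change of the 58 members in the authors' deposited table was 1.05 in the germline comparison, against 0.33 over all listed genes. In the soma comparison it was 0.37, against -0.08.

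The 4 types differed in where they were called. Pseudogenes were called mostly in the germline comparison, with 28 of 38 higher and 2 lower there, against 13 higher and 1 lower in the soma comparison. Of the 10 ncRNAs, 7 rose in the germline comparison, and 3 rose and 1 fell in the soma comparison. Of the 8 lincRNAs, 5 were higher and 1 lower in the soma comparison, and 2 were higher in the germline comparison. Listing needs a call in at least 1 comparison, so a member not called in 1 must be called in the other. The 2 counts of a type thus depend on each other. Of all listed genes 59.5% were called in the soma comparison and 62.9% in the germline comparison. Each of the 2 snoRNAs rose in 1 comparison. Medians of the log2 fold change that the authors' deposited table gives for the soma and germline comparisons were 0.22 and 1.14 for pseudogenes, 0.61 and 1.17 for ncRNAs, and 1.04 and 0.04 for lincRNAs.

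**Figure D1:**
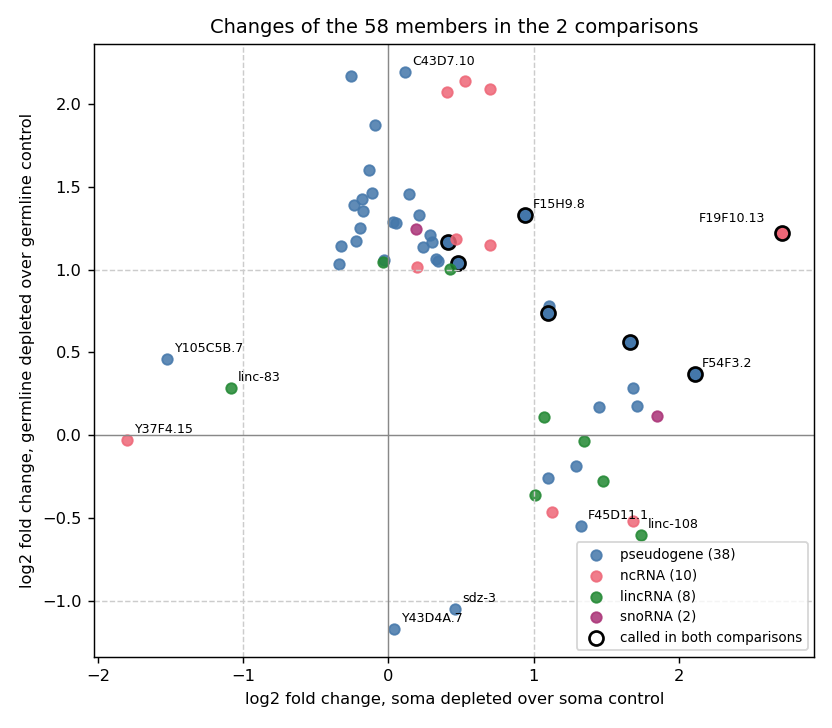
Authors' log2 fold changes of the 58 members, soma comparison on the x axis and germline comparison on the y axis, coloured by gene type, with dashed lines at 1 and -1 and rings around the 7 members called in both. Most pseudogenes sit near 0 on the x axis and above 1 on the y axis, while lincRNAs lie mainly to the right.

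Most members had low levels and modest counts. The authors' mean count over all samples ran from 28.5 to 1259 per member, with a median of 77.0, where the median over all listed genes was 162. The members' median of group mean FPKM was 3.81 in the soma control, 6.35 after soma depletion, 3.04 in the germline control and 5.15 after germline depletion. Across all listed genes the medians of group mean FPKM were 6.08, 6.37, 5.59 and 6.76. The germline control thus had the lowest median level of the 4 groups among members, and it was the lowest of the 4 means for 34 of 58 (58.6%). The same held for 38.9% of listed genes.

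**Figure D2:**
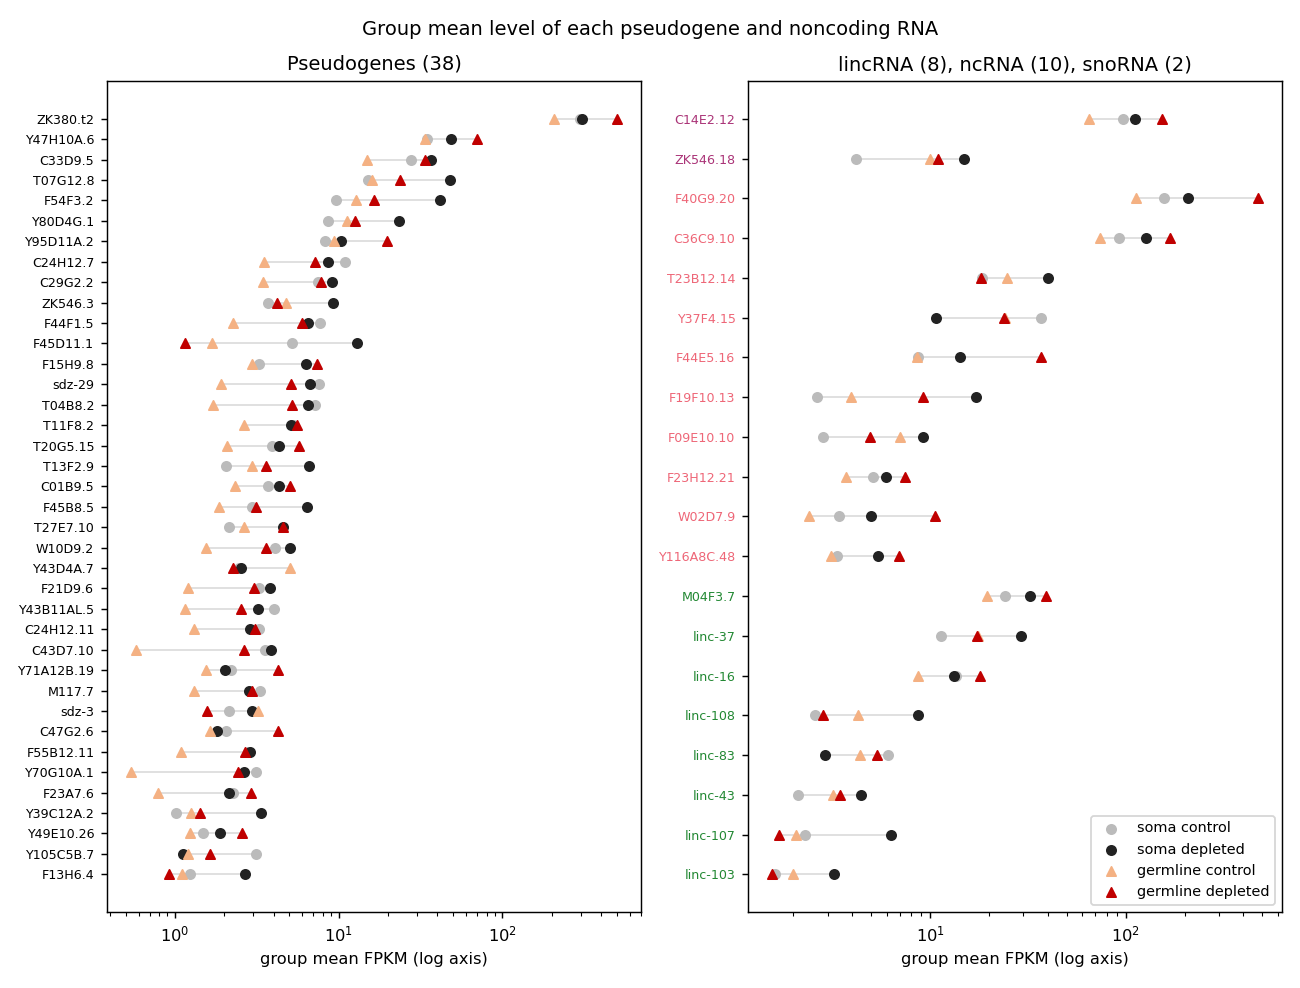
Group mean FPKM of each member on a log axis, pseudogenes on the left and the other types on the right, with 1 point per group. In many pseudogene rows the germline control (pale triangle) lies alone at the left end, and the germline control is the lowest of the 4 means in 34 of 58 members.

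Among the pseudogenes, the largest germline changes began from a low germline control. C43D7.10 (WBcel235, V:19308707-19309687, minus strand) had levels of 3.54, 3.85, 0.574 and 2.65 FPKM. The germline control stood apart below the other groups, and the log2 fold change in the authors' deposited table was 2.19 for the germline (DESeq2 adjusted p = 9.1e-08) and 0.12 for the soma. Y70G10A.1 (III:10223524-10224162, plus strand) showed the same order with 3.12, 2.62, 0.540 and 2.44 FPKM. Its germline change in the authors' deposited table was 2.17 (DESeq2 adjusted p = 4.8e-05). T04B8.2 (II:630075-631980, plus strand), at 7.13, 6.50, 1.72 and 5.21 FPKM, rose by 1.60 in the authors' deposited table (DESeq2 adjusted p = 2.1e-07). In these 3 pseudogenes the germline-depleted mean came back towards the soma means without passing them.

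F23A7.6 (X:16237273-16240702, minus strand) is the longest member, with 2353 annotated exon bases. Its levels were 2.25, 2.12, 0.783 and 2.90 FPKM, so here the germline-depleted mean passed both soma means. The authors' deposited table gave a germline log2 fold change of 1.88 (DESeq2 adjusted p = 6.1e-14) and a soma change of -0.09. F44F1.5 (I:13258381-13260217, minus strand) ran at 7.66, 6.51, 2.27 and 5.95 FPKM, with a germline change of 1.39 in the authors' deposited table (DESeq2 adjusted p = 7.9e-08). Both shared the low germline control of the former 3.

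In all, 14 of the 28 pseudogenes that rose in the germline had a germline control mean at most 0.5 times the soma control mean. None of the 14 was called in the soma comparison. Of all listed genes called in the germline in either direction, 35.7% were called in both. In 1 of the 14 (F23A7.6) the germline-depleted mean exceeded both soma means. Of the other 14, 10 had a germline-depleted mean above both soma means. The split by control level in part fixes this contrast, since a lower germline control must rise further to pass the soma control. A low germline control was no feature of members alone: the soma control was at least 2-fold above the germline control in 54.5% of all listed genes that rose in the germline, and in 36.8% of such members. The germline control was the lowest group in 89.5% of the 38 members and 81.6% of those listed genes.

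The other pseudogenes rose from germline controls closer to the soma controls. T20G5.15 (III:10195907-10197080) had 3.89, 4.29, 2.08 and 5.71 FPKM and a germline change of 1.45 in the authors' deposited table (DESeq2 adjusted p = 1.2e-09). Y71A12B.19 (I:13972617-13973412), at 2.20, 2.01, 1.54 and 4.28 FPKM, rose by 1.46 in the germline comparison of the authors' deposited table (DESeq2 adjusted p = 7.8e-06). For both, germline-depleted worms had the highest of the 4 means. ZK380.t2 (X:1643850-1643922), a 73-base pseudogene whose name belongs to the tRNA series of its cosmid, had the highest mean FPKM of the pseudogenes at 296, 307, 206 and 500.3. Its germline change in the authors' deposited table was 1.28 (DESeq2 adjusted p = 1.1e-13), and its soma change was 0.05. At the other end, F13H6.4 had the lowest mean level of the pseudogenes, with 1.24, 2.67, 1.10 and 0.921 FPKM.

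The 15 members not named by rule add mainly to the germline group. Of these, 12 rose in the germline comparison, with log2 fold changes of 1.04 to 1.35 in the authors' deposited table. The 2 members that fell in the germline were both pseudogenes. Y43D4A.7 had 2.45, 2.52, 5.04 and 2.26 FPKM and a germline change of -1.17 in the authors' deposited table (DESeq2 adjusted p = 0.0025). Its germline control was the group that stood apart, above the others. Levels of sdz-3, named as a zygotic gene dependent on SKN-1, were 2.14, 2.95, 3.23 and 1.56 FPKM, and the authors' deposited table gave a germline change of -1.05 (DESeq2 adjusted p = 0.00072).

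Markers of several cell types moved in the same comparison. Of 4 embryo markers, end-3 and pes-10 were listed and both rose in the germline comparison, while end-1 and med-1 were not listed. The summed level of the listed pair was 9.03, 7.72, 2.29 and 5.90 FPKM, lowest in the germline control. In the authors' deposited table the germline log2 fold change was 1.75 for end-3, a GATA factor of the early endoderm, and 1.06 for pes-10, an early embryonic transcript. Of 7 listed protein-coding genes that share the sdz name, 5 rose in the germline and 1 fell, and in 5 of them the germline control was the lowest mean. Of 7 sperm markers spe-11 and msp-31 were listed. On the log2 scale of the authors' deposited table spe-11 rose in the germline by 1.24, and msp-31, at 0.05, was not called. The summed level of that pair was 3.71, 9.37, 6.14 and 7.29 FPKM. Of 4 hypodermis markers the cuticle collagen genes col-19 and rol-6 were listed. The authors' deposited table gave them called germline changes of 0.71 and -0.80 on the log2 scale. Their summed level was 182, 440.3, 314 and 408 FPKM. Of 4 neuron markers unc-119 was listed, at 8.91, 22.8, 5.74 and 7.96 FPKM, and rose in the germline by 0.47 in the authors' deposited table. It is also the gene that the controls carry as the ed3 allele. No marker of oocytes and germline (0 of 8), intestine (0 of 5) or muscle (0 of 3) was listed. The part of these cell types in the rise of the pseudogenes was not tested.

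**Figure D3:**
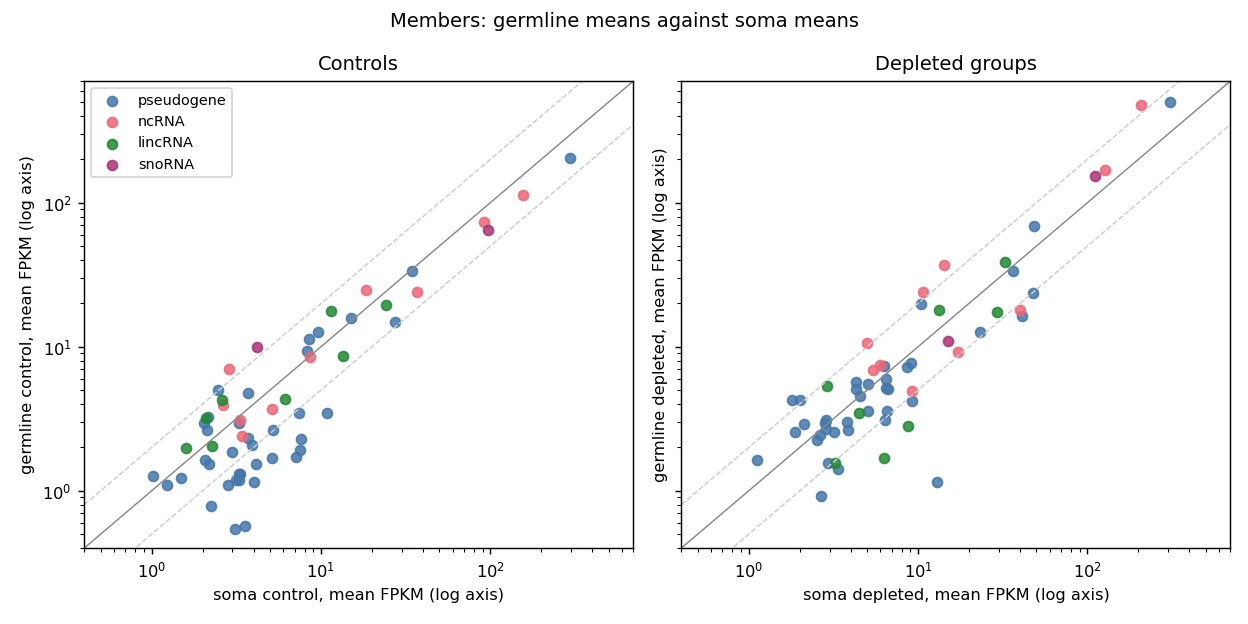
Germline means against soma means in FPKM on log axes, controls on the left and depleted groups on the right, 1 point per member, with a solid line at equality and dashed lines at 2-fold. In the controls 40 of 58 members lie below equality, 16 of them at least 2-fold below and all of those pseudogenes, and in the depleted groups the points are spread around the line.

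The control strains themselves differed for many members. The soma control mean was above the germline control mean in 40 of 58 members (69%), against 53.2% of listed genes. It was at least 2-fold above in 16 (27.6%), all pseudogenes, a share near the 25.6% of listed genes. The median ratio of germline control to soma control was 0.584 for pseudogenes, 0.869 for ncRNAs and 1.07 for lincRNAs, with 0.947 over all listed genes. No deposited test compares the 2 controls, which differ in the TIR1 transgene.

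After soma depletion the strongest call among members was the pseudogene F54F3.2 (V:12917450-12918902, plus strand). Its levels were 9.57, 41.3, 12.7 and 16.3 FPKM, and only the soma-depleted mean stood apart. The authors' deposited table gave a log2 fold change of 2.11 for the soma (DESeq2 adjusted p = 3.1e-45) and 0.37 for the germline (DESeq2 adjusted p = 0.019). T07G12.8 (IV:10553349-10553935) followed with 15.1, 47.6, 15.96 and 23.6 FPKM. Its soma change in the authors' deposited table was 1.66 (DESeq2 adjusted p = 2.0e-25). Y80D4G.1 (III:7601470-7604324), with 8.54, 23.3, 11.3 and 12.6 FPKM, rose by 1.45 in the soma comparison of the authors' deposited table (DESeq2 adjusted p = 1.0e-15). In all 3 the germline means lay between the soma means.

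Further pseudogenes that rose in the soma had lower levels. Y39C12A.2 reached 3.35 FPKM from 1.01, T13F2.9 reached 6.55 from 2.04, and ZK546.3 reached 9.22 from 3.72. In the authors' deposited table the log2 fold change was 1.71, 1.68 and 1.29 in turn. F45D11.1 (II:1021505-1023528, plus strand) had the widest range of the group means of any member, 11.2-fold, at 5.17, 13.0, 1.69 and 1.16 FPKM. Both soma means lay above both germline means. The authors' deposited table gave it a soma change of 1.32 (DESeq2 adjusted p = 5.5e-06) and a germline change of -0.55 (DESeq2 adjusted p = 0.10). Across the 22 members that rose in the soma, the soma-depleted mean was the highest of the 4 in 19 (86.4%), and the same held for 82.4% of listed genes that rose there.

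All 5 listed markers of sperm, hypodermis and neurons were called in the soma comparison, where 59.5% of all listed genes were. Listing needs a call in a comparison, and most markers of these cell types were not listed. In the authors' deposited table spe-11 changed there by 2.04, msp-31 by 1.12, col-19 by 1.42, rol-6 by -3.72 and unc-119 by 1.35. The controls carry unc-119 as the ed3 allele, so for this gene strain genotype and neurons cannot be told apart. The listed embryo markers end-3 and pes-10 were not called in the soma. The part of these cell types in the soma changes of members was not tested.

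Only Y105C5B.7 fell among pseudogenes in the soma, with 3.14, 1.12, 1.20 and 1.63 FPKM. Its soma log2 fold change in the authors' deposited table was -1.52. The soma control was the group above the rest.

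Among listed lincRNAs, linc-108 (V:15565170-15566425) had the largest soma change. Its levels were 2.59, 8.68, 4.26 and 2.82 FPKM, and the log2 fold change in the authors' deposited table was 1.74 (DESeq2 adjusted p = 4.8e-05). In linc-107 the levels were 2.28, 6.33, 2.06 and 1.68 FPKM, with a soma change of 1.48 in the authors' deposited table. The soma-depleted mean stood above the other 3 in both. For linc-37 (III:832984-833347) the authors' deposited table gave the smallest adjusted p of the lincRNAs, with 11.4, 29.2, 17.6 and 17.3 FPKM and a soma change of 1.35 (DESeq2 adjusted p = 8.7e-08).

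The remaining lincRNAs changed less. linc-43 (2.10, 4.46, 3.18 and 3.44 FPKM) and linc-103 (1.60, 3.24, 2.00 and 1.56 FPKM) rose in the soma by 1.07 and 1.01 on the log2 scale of the authors' deposited table. The only lincRNA to fall was linc-83, at 6.11, 2.91, 4.37 and 5.35 FPKM, with a soma change of -1.09 in the authors' deposited table. The 2 called in the germline were linc-16 (13.5, 13.2, 8.70 and 18.0 FPKM, change 1.04 in the authors' deposited table) and M04F3.7 (24.3, 32.5, 19.5 and 39.0 FPKM). M04F3.7, at 1.00, was the member closest to the fold threshold for listing. No lincRNA was called in both comparisons, where 22.4% of all listed genes were, but so few lincRNAs cannot set a contrast.

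The ncRNAs held the largest change of any member. F19F10.13 (V:7567999-7568131, plus strand, 133 exon bases) had 2.65, 17.1, 3.92 and 9.14 FPKM. Both depleted means stood above both control means, and in the authors' deposited table the log2 fold change was 2.71 for the soma (DESeq2 adjusted p = 6.8e-07) and 1.22 for the germline (DESeq2 adjusted p = 0.011). It rested on an authors' mean count of 32.3.

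In the germline comparison 3 ncRNAs rose by more than 2 on the log2 scale. W02D7.9 (V:8326285-8326699, minus strand) had 3.41, 4.99, 2.41 and 10.6 FPKM and a change of 2.14 in the authors' deposited table (DESeq2 adjusted p = 2.7e-07). F44E5.16 (II:11756785-11756919, plus strand) had 8.66, 14.2, 8.55 and 36.7 FPKM and a change of 2.09 in the authors' deposited table (DESeq2 adjusted p = 9.9e-11). F40G9.20 (III:178876-178895, plus strand, only 20 exon bases) had 157, 207, 113 and 476 FPKM and a change of 2.07 in the authors' deposited table (DESeq2 adjusted p = 2.1e-15). The germline-depleted mean was the highest of the 4 in each, and it was so in 6 of the 10 ncRNAs, against 12 of the 38 pseudogenes.

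Other ncRNAs rose less in the germline. C36C9.10 had 91.9, 127, 73.8 and 168 FPKM and a germline change of 1.18 in the authors' deposited table (DESeq2 adjusted p = 9.1e-10). Y116A8C.48 (3.32, 5.42, 3.11 and 6.91 FPKM) and F23H12.21 (5.13, 5.96, 3.69 and 7.43 FPKM) rose by 1.15 and 1.01 on the log2 scale of the authors' deposited table. In the soma comparison F09E10.10 (2.85, 9.22, 7.03 and 4.92 FPKM) and T23B12.14 (18.4, 40.2, 24.8 and 18.1 FPKM) rose by 1.68 and 1.12 in the authors' deposited table. Both ran lower in the germline-depleted than in the germline control mean, with DESeq2 adjusted p of 0.14 and 0.31 in the authors' deposited table. The ncRNA that fell, Y37F4.15 (I:10858078-10858150), had 37.04, 10.7, 24.1 and 23.9 FPKM and a soma change of -1.80 in the authors' deposited table (DESeq2 adjusted p = 8.7e-05).

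The 2 snoRNAs moved in different comparisons. C14E2.12 (X:1831628-1831762, minus strand) had 97.2, 111, 64.6 and 153 FPKM and a germline change of 1.24 in the authors' deposited table (DESeq2 adjusted p = 1.6e-06), with a soma change of 0.19. ZK546.18 (II:4942395-4942519, minus strand) had 4.17, 15.0, 10.03 and 10.9 FPKM and a soma change of 1.85 in the authors' deposited table (DESeq2 adjusted p = 1.9e-04). For ZK546.18 the soma control stood apart below the other means, and its authors' mean count was 36.7.

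Very short exons set the scale of several of these levels. The 9 members with under 200 annotated exon bases were 6 ncRNAs, both snoRNAs and ZK380.t2, and all but 3 of them rose in the germline. FPKM divides by length, so few reads give a high value on a short gene. For 57 of the 58 members the authors' mean count equalled, within 1%, the sample-weighted mean FPKM multiplied by the annotated exon kilobases and a constant of 27.8. Group mean counts could therefore be read back. F40G9.20, annotated over 20 bases, had implied group mean counts of 87.2, 115, 63.0 and 265, behind FPKM values up to 476. Whether those reads came from a longer transcript that crosses the 20 bases was not tested. C33D9.5, with 1604 exon bases, had implied counts of 1228, 1633, 666 and 1498 behind levels of 27.5, 36.6, 14.9 and 33.5 FPKM. Levels of F40G9.20 in FPKM were thus above those of C33D9.5, and its counts were below. The exception to the relation was F45B8.5, whose count implied 1152 exon bases against 704 annotated.

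**Figure D4:**
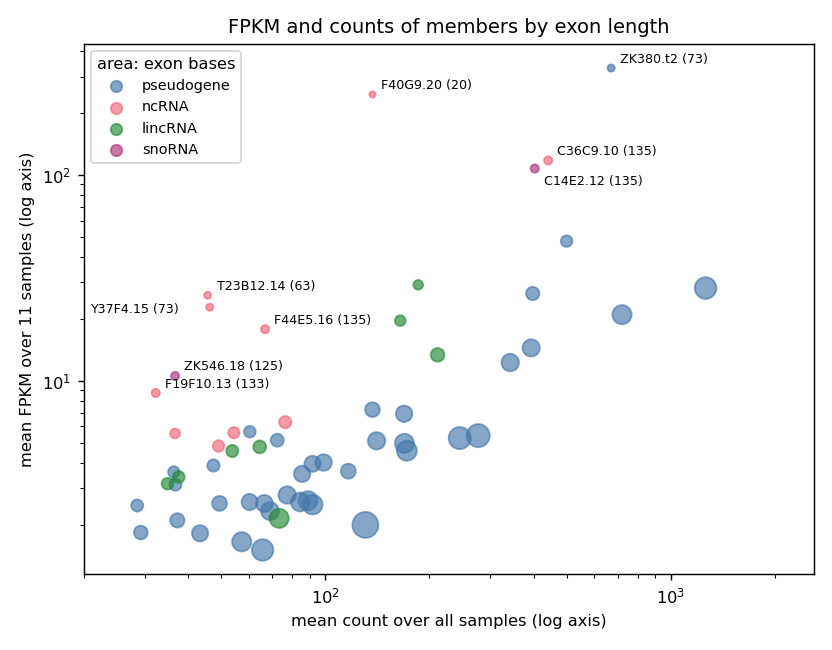
Sample-weighted mean FPKM against the authors' mean count over all samples, both on log axes, with point area by annotated exon bases and exon bases in brackets for the 9 shortest members. The short members lie above the rest at the same count, F40G9.20 and ZK380.t2 most of all.

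All of the 7 members called in both comparisons rose in both. They were F19F10.13, F54F3.2 and T07G12.8 above, and the pseudogenes C33D9.5, Y47H10A.6, F15H9.8 and F45B8.5. They made up 28% of the members called in the soma and 17.5% of those called in the germline. Among all listed genes, the 198 called in both were 37.7% of those called in the soma and 35.7% of those called in the germline, and 69 of them were higher in both. C33D9.5 changed by 0.41 in the soma (DESeq2 adjusted p = 0.039) and 1.17 in the germline (DESeq2 adjusted p = 3.6e-15) in the authors' deposited table. Y47H10A.6, at 34.6, 48.3, 33.8 and 69.5 FPKM, changed by 0.48 and 1.04 in the authors' deposited table. F15H9.8, at 3.27, 6.32, 2.94 and 7.40 FPKM, changed by 0.94 and 1.33 in the authors' deposited table. F45B8.5, at 2.97, 6.37, 1.86 and 3.12 FPKM, changed by 1.10 and 0.74 in the authors' deposited table. In 2 of the 7, T07G12.8 and F45B8.5, both adjusted p-values were under 0.01.

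Several members share their place with other genes. With piRNA genes left out of the count, 18 of 58 overlapped another gene of the Ensembl annotation, 11 of them exon on exon, and 6 had no other gene within 2 kb. A further 3 overlapped a piRNA gene only. No source used here says whether reads were counted by strand, and strand cannot separate exons shared on the same strand. The 11 therefore have uncertain values. They include F54F3.2, which overlaps the ncRNAs F54F3.5 and F54F3.6 on the opposite strand. linc-37 overlaps exons of zip-2, a bZIP transcription factor gene, on the same strand, and Y37F4.15 overlaps Y37F4.1 on the same strand. C43D7.10 overlaps F55C9.11, linc-43 overlaps F09A5.3, and both pairs lie on 1 strand. linc-16 overlaps exons of fbxa-3 on the same strand and of fbxc-19 on the opposite strand, and neither gene is listed. F45B8.5, typed protein-coding in the newer annotation, overlaps F20D1.21 and F20D1.22. On the same strand but without a shared exon, T07G12.8 overlaps zim-1, Y39C12A.2 overlaps mlt-3 and ZK546.18 overlaps mdt-4. None of these host genes is listed. Whether reads from unspliced RNA of the hosts entered the members' values was not tested.

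In 8 members a listed protein-coding gene overlapped or lay within 2 kb. Listing itself needs a log2 fold change of at least 1 in either direction, and unlisted neighbours, some of them nearer, have no values here. Whether members move with their neighbours therefore cannot be read from these pairs. ZK546.18 overlaps exons of ZK546.19 on the opposite strand, and ZK546.3 lies 1444 bases from the same gene. In the soma comparison of the authors' deposited table the 3 changed by 1.85, 1.34 (ZK546.19) and 1.29. F40G9.20 and F40G9.6, 647 bases apart on 1 strand, changed by 2.07 and 1.76 in the germline comparison of the authors' deposited table. For sdz-29 and sdz-28, 1789 bases apart on opposite strands, the germline changes in the authors' deposited table were 1.43 and 1.55. F44F1.5 and F44F1.6, at 649 bases, had 1.39 and 1.63, and linc-16 and fbxb-10, at 1842 bases, had 1.04 and 1.28, in the same comparison of the authors' deposited table.

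Other neighbours went apart. F44E5.16 lies 188 bases from F44E5.4, a heat-inducible Hsp70 gene, on the opposite strand. In the germline comparison of the authors' deposited table F44E5.16 changed by 2.09 and F44E5.4 by -1.61. Levels of F44E5.4 were 11.8, 29.8, 86.1 and 28.2 FPKM, highest in the germline control. There F44E5.16 was lowest, though barely, at 8.55 FPKM against 8.66 in the soma control. In the soma comparison of the authors' deposited table both changes were upward, 0.70 for F44E5.16 (not called) and 1.33 for F44E5.4 (called). C29G2.2 and irg-3, named for its response to infection, lie 833 bases apart and differed in both comparisons. The authors' deposited table gave 1.17 and 0.03 for the germline, and 0.30 and -1.11 for the soma.

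**Figure D5:**
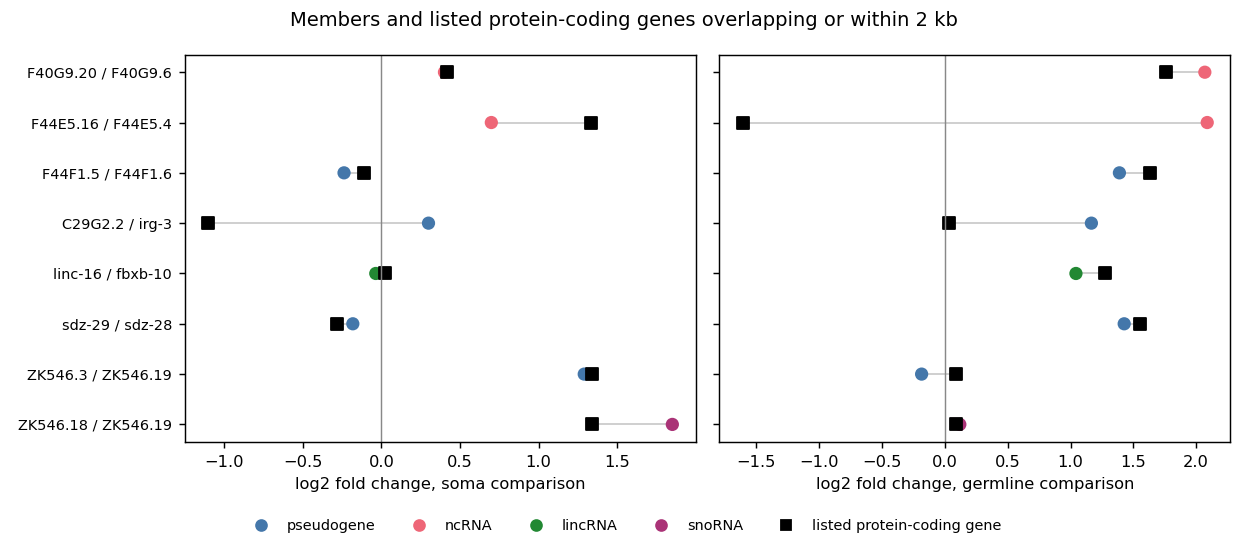
Authors' log2 fold changes of 8 members (circles, coloured by type) and of the listed protein-coding gene that overlaps each or lies within 2 kb (black squares), soma comparison on the left and germline comparison on the right. In the germline panel F44E5.16 at 2.09 and F44E5.4 at -1.61 lie farthest apart, and F40G9.20, F44F1.5, linc-16 and sdz-29 each have a neighbour above 1. Unlisted neighbours have no values and are not drawn, and listing itself needs a change of at least 1 in a comparison.

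Members were placed along the chromosomes much like the other listed genes. Chromosome II held 14, chromosomes IV and V 11 each, X 9, I 7 and III 6. The first and last 25% of the annotated span of the chromosomes held 50% of members and 49.3% of listed genes.

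Splicing events were listed in 7 members (12.1%), beside 8.28% of all listed genes. Of their 8 events, 5 reached a q-value under 0.05 in the soma and 3 in the germline. Of the 3096 events in the authors' deposited splicing table, 51.9% passed in the soma and 25.7% in the germline. None of the 8 passed in both, but that share was not counted over all events, so nothing is read from it. Inclusion differences are given as deposited, as a share of transcripts, and no source used here states their direction.

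Intron retention was the event in linc-103 and F45D11.1. In linc-103, the event at X:6256969-6258999 differed by -0.473 in the soma (q = 0.0139) and the event at X:6256778-6257700 by 0.220 in the germline (q = 0.00683), per the authors' deposited splicing table. These are overlapping events of 1 gene. In F45D11.1, the event at II:1022489-1023528 differed by -0.124 in the soma of the authors' deposited splicing table (q = 0.000712).

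Alternative splice sites made up 4 more. An alternative 5′ site of Y37F4.15 (I:10858077-10858991) differed by -0.461 in the soma in the authors' deposited splicing table (q = 0.00151). Y37F4.15 also fell in level there. The event reaches beyond its annotated exon into the overlapping Y37F4.1. Alternative 3′ sites were listed for T04B8.2 in the germline (-0.188, q = 0.00794), for T11F8.2 in the soma (0.111, q = 0.0399) and for an event shared by linc-37, K02F3.15 and zip-2 in the soma (-0.187, q = 0.000131), all in the authors' deposited splicing table. T11F8.2 itself, at 5.22, 5.09, 2.65 and 5.53 FPKM, rose in level in the germline comparison only, by 1.06 in the authors' deposited table. The last event, a skipped exon of sdz-29 (II:2124901-2128710), differed by 0.183 in the germline in the authors' deposited splicing table (q = 0.000977).

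Names of genes that make, process or remove such RNAs were looked up among the listed genes. None of 45 gene names for small RNA pathways, nonsense-mediated decay, the exosome, the Integrator complex and snoRNA proteins was found. A gene listed under another name would be missed. The values and p-values of these genes were not analysed here.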

How the data were processed

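The authors deposited a table of 882 genes with group mean FPKM, DESeq2 log2 fold changes, Benjamini-Hochberg adjusted p-values and a mean count per gene. No source used here states how that count was normalized. Replicates are pooled in every column. A splicing table, also deposited by the authors, holds 3096 events with q-values and inclusion level differences, a score from -1 to 1, per the file headers. Event starts count from 0 there and from 1 here, since the start plus 1 met an annotated exon start for 2396 events. Identifiers follow Ensembl 97, per the file headers. The submitters' processing notes name Trim Galore 0.6.0, cutadapt 1.18, STAR 2.7.2a, SAMtools 1.7, DESeq2 1.26.0 and the build WBcel235/ce11. The labels describe 3 replicates per group, of which replicates 1 and 3 were analysed here for the soma control.

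The members, gene lists and rules were chosen with earlier results of these data known. Members were selected by gene type and name, counted by direction at an adjusted p under 0.05 and set beside all listed genes. No new test was run, and depth per sample is unknown. The log2 ratio of group mean FPKM lay within 0.1 of the authors' log2 fold change, with the same sign, for 58 of 58 members in both comparisons. The header note words the germline column against the soma control, but the values are depleted over control within the germline pair. Places, overlaps and exon lengths came from Ensembl 115, which held all 58 members. Sequences were not analysed here.

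Named genes were every snoRNA and lincRNA, members called in both comparisons, members with a splicing event, the extremes of mean FPKM per type, and the leading calls per type. The last were, in each comparison, up to 8 called ncRNAs and 8 called pseudogenes with the largest change, and up to 3 called members of each type with the smallest adjusted p. This took in 43 members, not all of which are given in full. Y43D4A.7 and sdz-3, the 2 members that fell in the germline, C29G2.2, which has a listed neighbour, and T27E7.10 were added after their values were seen. Of 35 cell type markers, 7 were listed: 2 of 7 for sperm, 2 of 4 for hypodermis, 1 of 4 for neurons and 2 of 4 for embryos, and none for oocyte and germline, intestine or muscle. Alternatives were other thresholds, filters, pseudocounts and member sets. Counting was tested on simulated data. Python 3.11.15, pandas 2.3.3, numpy 2.4.6 and matplotlib 3.10.9 were used.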

Additional observations from a re-analysis of the deposited data

How the results depend on the processing

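The tables hold group means of listed genes, so no replicate could be left out and a level has no error. No paired analysis was possible because no values per sample were available. With a log2 fold change of at least 2 required, the members called were 2 in the soma and 5 in the germline. With an authors' mean count of at least 100, they were 8 and 19 of 22, and all were higher. Without the 18 members that overlap another gene, 14 of 40 were called in the soma, 12 of them higher. The overlapping members number 11 when exons must overlap, a choice made after seeing the data. The median log2 fold change over called members alone was 1.29 in the soma and 1.20 in the germline. The germline median was 0.84 with a pseudocount of 1 on the FPKM ratio, and 1.17 without overlapping members. The soma control was above the germline control in 40 members, by at least 2-fold in 16. Among the 22 members with a mean count of at least 100 it was above, by any amount, in 17. At an adjusted p under 0.01, 19 and 38 members were called. Those lost were C33D9.5, F15H9.8, T23B12.14, T27E7.10, Y47H10A.6 and linc-43 in the soma, and F19F10.13 and F54F3.2 in the germline. Other choices made after seeing the data, leaving out members with exon overlap or with under 200 exon bases, gave 19 of 47 and 21 of 49 in the soma and 33 and 34 in the germline. No tried setting reversed the sign of a median. Counts of calls and single members kept the authors' log2 fold changes in every setting, so they could not show a reversal.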

Other observations

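Pseudogenes also occur among listed genes outside the 58 members. The 4 F-box pseudogenes moved in different ways in the authors' deposited table. In the germline comparison fbxb-12 changed by 2.08 (DESeq2 adjusted p = 2.1e-07), from 0.686 to 2.86 FPKM, and fbxb-94 by 1.39. Both had soma means above the germline control mean, as many pseudogenes above did. By contrast fbxa-186 fell by 1.35 in the germline comparison of the authors' deposited table, and fbxc-6 rose by 1.31 in the soma comparison.

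Another 7 genes typed protein-coding in the authors' deposited table are pseudogenes in Ensembl 115. In the soma comparison of the authors' deposited table W02B12.4, E02H9.2 and ZK678.3 rose, by 1.40, 1.44 and 1.23, and another gene by 2.43. F07C4.12 and Y18D10A.22 had soma changes of -1.01 and -1.14 there, both called. In the germline comparison of the authors' deposited table ZK678.3, ZK930.5 and W02B12.4 rose, by 1.29, 1.04 and 0.55, and F07C4.12 had a called change of -0.29. The other 3 were not called in the germline. With gene types of the newer annotation, 30 of 64 genes were called in the soma and 43 in the germline.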
